A study of Homo sapiens with 27 samples.

Results

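The transcripts described here encode the subunits of the oxidative phosphorylation machinery, from both genomes of the cell. They comprise the 13 protein-coding genes of mitochondrial DNA and 90 protein-coding nuclear genes whose symbols name subunits of complexes I to V, chosen by symbol and biotype with assembly factors and pseudogenes left out. That is 103 genes of the 60604 used in the deposited count table. By complex, the nuclear members number 40 for complex I, 4 for complex II, 10 for complex III, 17 for complex IV and 19 for complex V, and the mitochondrial members number 7 for complex I, 1 for complex III, 3 for complex IV and 2 for complex V.

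RNA was sequenced from 27 libraries of EA.hy926, an established line that is a hybrid of human umbilical vein endothelium and the A549 lung carcinoma line. Control cells met no other cells, and 6 groups were exposed for 48 h to ASC52telo cells, an hTERT-immortalised line of adipose mesenchymal stromal cells (MSCs), or to their products. Young MSCs were untreated, and senescent MSCs were those 10 days past an 18 h treatment with mitomycin C (1.5 µg/mL). Exposure was by the decellularised matrix (young ECM, senescent ECM), by conditioned medium (young CM, senescent CM) or by direct co-culture, and the genotype label is wild type throughout. There were 4 libraries per group, but only replicates 2 to 4 of senescent co-culture. Both lines are single immortalised lines, and nothing in the labels says that replicates were separate cultures, so the p-values rest on a spread among libraries that could be purely technical. The labels give the cell type as endothelial and leave unsaid whether co-cultured MSCs were removed before RNA extraction, while the extraction protocol names MSCs.

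Oxidative phosphorylation passes electrons from NADH (complex I) and succinate (complex II) through ubiquinone, complex III and cytochrome c to oxygen at complex IV, and the proton gradient built on the way drives ATP synthesis at complex V. Complexes I, III, IV and V each mix subunits made in the cytosol from nuclear genes with a few made inside the mitochondrion, whereas complex II is wholly nuclear and is also an enzyme of the citric acid cycle. Endothelial cells are known for taking most of their ATP from glycolysis, with respiration serving biosynthesis and signalling as well. Nuclear subunit genes are known targets of the transcription factors NRF1, the ETS-family factor GABP and YY1, while mitochondrial DNA is copied into long transcripts that are cut into the separate messages.

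In mitochondrial DNA, 3 pairs of neighbouring reading frames share bases, and reads there fall in both genes. MT-ATP6 and MT-CO3 share 1 base. The other 2 overlaps are shown because reads at those bases may have been counted for both, either or neither gene of a pair. How such reads were assigned is not given in the sources used here. In both lines the shared bases are in capitals, with 12 bases of each neighbour, on the + strand of GRCh38 from GENCODE 29 transcripts. The first spans chrM:8515-8584 with 46 shared bases, which is 22.2% of MT-ATP8 and 6.75% of MT-ATP6. The second spans chrM:10748-10778 with 7 shared bases.
MT-ATP8 and MT-ATP6: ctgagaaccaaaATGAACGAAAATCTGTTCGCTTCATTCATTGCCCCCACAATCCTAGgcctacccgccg
MT-ND4L and MT-ND4: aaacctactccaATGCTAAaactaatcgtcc

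SDHA and SDHB, the flavoprotein and the iron-sulfur subunit of complex II, are shown by the 250 bases before the start sites of RefSeq, since the results on the nuclear genes turn on SDHA. Sequences are from its GRCh38.p14 table, with the SDHA window at chr5:218070-218319 on the + strand and the SDHB window at chr1:17054033-17054282 on the - strand. GENCODE 29 places the gene starts farther upstream, at 218241 and 17054170, so that 79 bases of the SDHA window and 138 of the SDHB window lie after them. Capitals mark matches on either strand to an NRF1 motif (GCGCA, any base, then GCGC), an ETS motif (CCGGAAG) or a YY1 motif (AAGATGGC), which overlapped nowhere in these 2 windows.
SDHA: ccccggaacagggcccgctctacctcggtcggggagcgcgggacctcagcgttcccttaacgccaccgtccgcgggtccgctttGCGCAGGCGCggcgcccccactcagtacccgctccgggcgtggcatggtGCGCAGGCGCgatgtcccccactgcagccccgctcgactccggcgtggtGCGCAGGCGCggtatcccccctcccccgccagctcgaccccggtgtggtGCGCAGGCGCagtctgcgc
SDHB: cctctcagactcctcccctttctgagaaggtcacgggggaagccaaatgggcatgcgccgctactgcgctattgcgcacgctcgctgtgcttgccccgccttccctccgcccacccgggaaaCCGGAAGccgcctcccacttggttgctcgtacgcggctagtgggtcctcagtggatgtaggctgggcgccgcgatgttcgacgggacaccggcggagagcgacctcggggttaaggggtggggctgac

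The SDHA window held 4 NRF1 matches, and the SDHB window held 1 ETS match. Of the 4, 2 lie after the GENCODE start of SDHA, as does the SDHB match. The 4 matches have the same letters and start 49 bases apart. The bases from the first match shared 28 of 49 letters with those from the second, those from the second 37 of 49 with those from the third, and those from the third 15 of the 19 left in the window. At least 4 NRF1 matches were present in 11 of 27305 promoters of the same length, SDHA being the only one among the 70 nuclear members in the table, where no other member had more than 2. One NRF1 match or more occurred in 15 of the 70 member promoters (21.4%) and in 5.53% of all promoters. For the ETS motif the shares were 17 of 70 (24.3%) and 8.82%, and for the YY1 motif 1 of 70 (1.43%) and 1.37%. Among complex II genes, SDHD had 1 match of each of the first 2 motifs. SDHC was not among the 70 promoters, so it was not searched. These are letter matches, not sites shown to be bound.

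Before any comparison, the libraries set limits on what can be read. Total counts ran from 66320519 to 111512357 per library. Replicate 1 was kept apart: in its 5 libraries of the control, ECM and CM groups, 9 stromal marker genes (COL1A1, COL1A2, COL3A1, LUM, DCN, PDGFRB, THY1, POSTN and TERT) took 0.492 to 0.934% of counts, against 0.00175 to 0.00314% in replicates 2 to 4 of those groups. The remaining replicate 1 library, of young co-culture, had stromal markers at 0.00414% and ribosomal protein genes at 23.6% of counts, where no library of replicates 2 to 4 passed 10.9%. Among 10 endothelial markers, PECAM1 lay between 404 and 1347 CPM and CDH5 between 146 and 806 CPM in the 21 libraries of replicates 2 to 4, whereas EMCN was at 0 to 0.0298 CPM. NOS3 ran from 163 to 1785 CPM in these libraries. Values below are for replicates 2 to 4 (n = 3 per group) unless replicate 1 is named.

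Levels are given first, as CPM (counts scaled to a common library size, with TMM factors) divided by exon length in kilobases so that genes can be compared. On this scale the mitochondrial messages stood far above the nuclear ones: their medians were 1511 CPM per kb for complex I, 4168 for complex IV and 2560.4 for complex V, and MT-CYB, the one for complex III, stood at 1913. Nuclear medians were 17.6 CPM per kb for complex I, 18.9 for complex II, 48.0 for complex III, 30.3 for complex IV and 33.2 for complex V. MT-CO3, the third core subunit of cytochrome c oxidase, was the highest mitochondrial member at 4545 CPM per kb. MT-ND6, the only one of the 13 on the light strand and known to lack a stable poly(A) tail, was the lowest at 60.4 in these poly(A)-selected libraries. Among nuclear genes ATP5F1B, the catalytic beta subunit of ATP synthase, was highest at 529 CPM per kb.

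**Figure D1:**
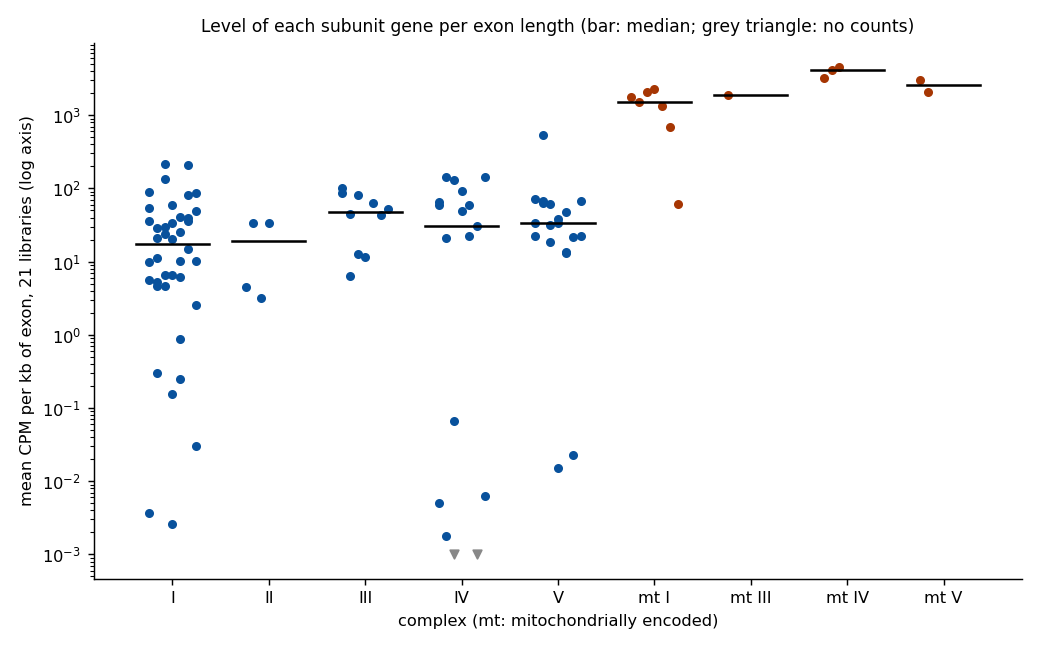
Level of each subunit gene in CPM per kb of exon on a log axis (vertical) by complex and genome (horizontal; mt, mitochondrially encoded), as the mean over the 21 libraries of replicates 2 to 4, with bars for medians. The 13 mitochondrial genes lie between 60.4 and 4545, and the highest nuclear gene lies at 529; grey triangles mark the 2 genes with no counts.

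Where a complex has alternative isoforms, the widely expressed one carried nearly all the counts. In complex IV, COX4I1 averaged 286 CPM over the 21 libraries against 0.00122 for COX4I2, COX6A1 averaged 79.8 with COX6A2 never counted, COX6B1 averaged 136 against 0.0190 for COX6B2, and COX7A2 averaged 94.1 against 0.0669 for COX7A1, the isoform known from heart and skeletal muscle. COX7B stood at 91.7 CPM against 0.00502 for COX7B2, and COX8A at 72.9 CPM with COX8C never counted. NDUFA4, now known as a complex IV subunit although its symbol places it in complex I, averaged 128 CPM against 0.840 for its hypoxia-linked paralog NDUFA4L2. The 3 genes for the identical c-ring subunit of ATP synthase were all present, at 56.0 CPM for ATP5MC1, 272 for ATP5MC2 and 149 for ATP5MC3.

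In all, 89 members averaged 1 CPM or more and 14 were lower, of which 9 had under 10 counts in every library. Some of the low ones are subunits every complex I needs: NDUFV2 averaged 0.423 CPM, NDUFA3 0.0760, NDUFA6 0.00369 and NDUFA7 0.350, and NDUFA13 reached only 2.34 CPM, while NDUFS1 and NDUFV1, core subunits of the same complex, averaged 57.4 and 152 CPM. In GENCODE 29, exons of another gene on the same strand cover 28.4% of the exon length of NDUFV2, 32.3% of NDUFA7 and 21.0% of NDUFA13, while NDUFA3 and NDUFA6 have no such overlap, and COX8A has more (34.5%) and averaged 72.9 CPM. Of the 60604 genes used, 58336 have a GENCODE 29 position, so the annotation used for counting may hold overlaps not seen here. The counts of the low genes are given as uncertain, and the part of overlap in them was not tested. UQCRH and UQCRHL, close copies of one complex III hinge gene, may likewise share reads, as may SDHA and its pseudogenes.

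Group means of the mitochondrial share of all counts ran from 2.09% in senescent co-culture to 3.21% in young ECM, and control libraries alone ran from 1.88 to 3.20%. In control cells the 13 genes took 3.20, 1.88 and 2.61% of counts in replicates 2, 3 and 4. The shares were 3.61, 2.53 and 3.49% in young ECM and 3.65, 3.14 and 2.22% in senescent ECM. In young CM they were 2.32, 2.24 and 2.59%, and in senescent CM 2.57, 2.26 and 2.62%. Every one of these 4 groups overlapped with control. Young co-culture had 2.58, 2.02 and 2.46% and senescent co-culture 1.95, 1.66 and 2.66%, which also overlapped with control.

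The 90 nuclear genes together took a smaller share, 0.682 to 1.22% of counts over the 21 libraries. Control libraries had 0.828, 1.05 and 0.860%, young co-culture 0.682, 0.945 and 0.781%, and senescent co-culture 0.855, 0.817 and 0.710%. Young CM was highest on average at 1.06 ± 0.173% (SD, n = 3), from 1.16, 1.16 and 0.860%, and it overlapped with control. The nuclear share moved with that of 82 cytosolic ribosomal protein genes: the 10 libraries with the highest nuclear share were also the 10 with the highest ribosomal protein share, which ran from 5.00 to 10.9%. They belonged to 6 of the 7 groups. What part this shared movement has in the differences below was not tested. The ratio of mitochondrial to nuclear counts ran from 1.79 in control replicate 3 to 4.78 in young ECM replicate 2.

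**Figure D2:**
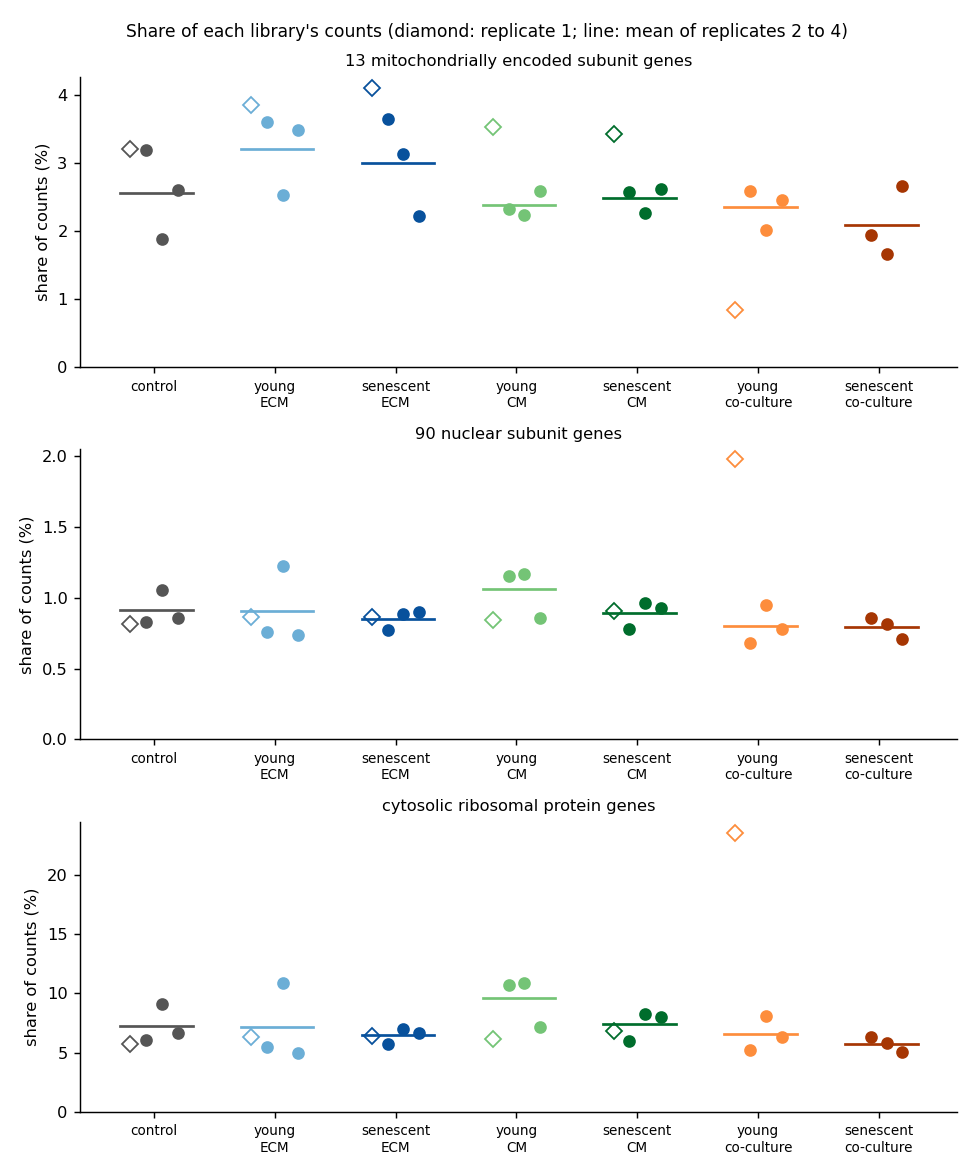
Share of each library's counts in percent (vertical, from 0) taken by the 13 mitochondrial genes, the 90 nuclear subunit genes and the 82 ribosomal protein genes, by group; circles are replicates 2 to 4, diamonds replicate 1 and lines the mean of replicates 2 to 4. Every exposed group overlaps with control in the upper 2 panels, and young co-culture replicate 1 stands apart in all 3, at 0.848%, 1.98% and 23.6%.

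Over all 7 groups at once (edgeR quasi-likelihood F-test, 21 libraries), 4 of the 81 nuclear members tested and 0 of the 13 mitochondrial members differed at an adjusted p under 0.05, where 18.9% of all 18492 genes tested did. The 4 were SDHA (adjusted p = 0.000798), COX7A1 (0.00148), NDUFA13 (0.0184), whose product is a supernumerary complex I subunit, and NDUFV3 (0.0230), another accessory subunit of complex I. Leaving out 1 replicate number from every group left 1 member without number 2 or number 4 (SDHA) and 2 without number 3 (SDHA and COX7A1). The lowest adjusted p of a mitochondrial gene was 0.0857, for MT-CYB; 5 mitochondrial and 16 nuclear members had an unadjusted p under 0.05. DESeq2 called 11 members, among them the mitochondrial MT-ATP6, MT-CO3, MT-CYB and MT-ND4. The fit with replicate number as a block and the fit with no filter on low counts called more, as given in the last section. The group means of SDHA were lowest in young co-culture and highest in young CM.

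Exposure to matrix asks what the material laid down by MSCs does to endothelial cells. No member passed the threshold in young ECM against control (0 of 93 tested; 0.649% of all genes were called), nor in senescent ECM (0 of 93; 0.300%). DESeq2 also called 0 in both, and 2 members in each had an unadjusted p under 0.05, at backgrounds of 8.52 and 6.79%. The mitochondrial genes lay above control on balance: 12 of 13 had a log2 fold change above 0 in young ECM with a median of 0.33, and 11 of 13 in senescent ECM with a median of 0.22. Without control replicate 2 these medians were 0.51 and 0.50, and without control replicate 3 they were 0.14 and 0.04. The medians of all genes were 0.00 and -0.01. MT-ND4, a proton-pumping subunit of complex I, had 4391, 1779 and 3218 CPM in control, 5056, 3008 and 5255 in young ECM and 5083, 4111 and 2855 in senescent ECM. Both ECM groups overlapped with control, and the log2 fold changes of 0.49 ± 0.29 (SE) and 0.35 ± 0.29 did not pass (adjusted p = 0.751 and 0.999). MT-CYB, cytochrome b, stood at 0.45 ± 0.21 in young ECM (adjusted p = 0.589).

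Nuclear members showed no common direction on matrix. Their median log2 fold change was 0.08 in young ECM, with 58 of 80 above 0, and -0.08 in senescent ECM, with 62 of 80 below 0. Without young ECM replicate 3, the library highest in ribosomal protein share in that group, the young ECM median was -0.30. The 4 complex II genes lay between 0.06 and 0.11 in young ECM. Among libraries that did not overlap with control, 1 nuclear member was higher in young ECM (5.66% of all genes were) and 2 higher and 2 lower in senescent ECM (6.57 and 5.34%).

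Conditioned medium separates soluble factors from contact. Again 0 of 93 members passed in young CM (0.00% of all genes called) and 0 of 93 in senescent CM (0.505%); DESeq2 called 0 in both, and 2 and 1 members had an unadjusted p under 0.05 (backgrounds 4.70 and 6.36%). In young CM, 76 of the 80 nuclear members tested had a log2 fold change above 0, with a median of 0.37 against 0.01 for all genes, and complexes I to V had medians of 0.36, 0.22, 0.40, 0.42 and 0.37. COX4I1, the ubiquitous regulatory subunit of complex IV, had 257, 333 and 258 CPM in control and 449, 397 and 251 CPM in young CM. Replicates 2 and 3 of young CM lay above every control library and replicate 4 below them, and ribosomal protein genes took 10.7, 10.9 and 7.12% of counts in the same 3 libraries. The mitochondrial genes had a median of -0.09 there. In senescent CM the medians were 0.00 for nuclear and -0.05 for mitochondrial members, and 42 of 80 nuclear members were above 0.

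**Figure D3:**
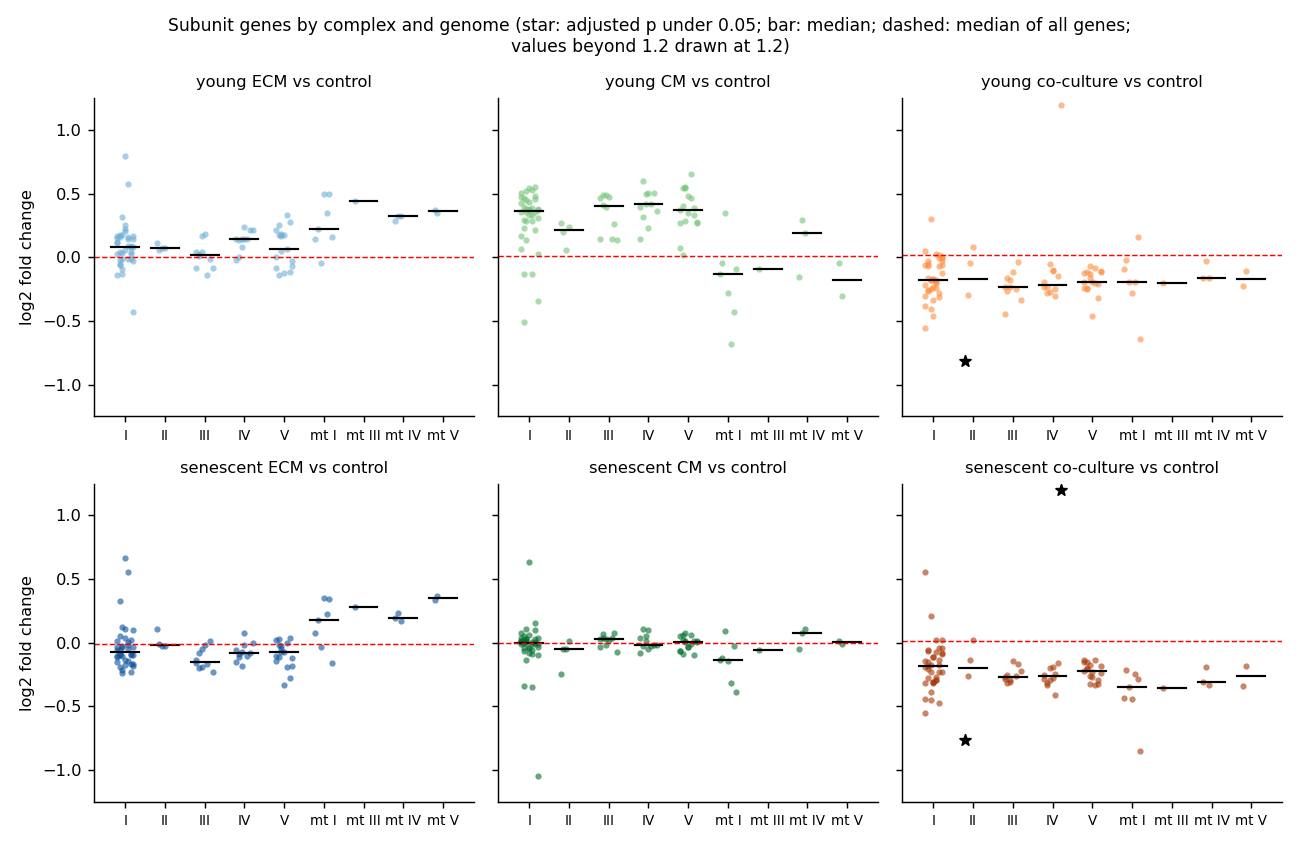
Log2 fold change against control (vertical) of each tested subunit gene by complex and genome (horizontal), 1 panel per exposure; bars are medians, dashed lines the median of all genes and stars members past an adjusted p of 0.05. SDHA is the star in complex II of both co-culture panels, and COX7A1, drawn at the upper edge, the star in complex IV of senescent co-culture.

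Few members passed the threshold in direct co-culture: 1 of 93 tested in young and 2 of 93 in senescent co-culture, against 9.68 and 8.05% of all genes. SDHA, the subunit of complex II that oxidises succinate, fell in both co-cultures. COX7A1, the muscle isoform of a complex IV subunit, rose in senescent co-culture from near 0. Most other nuclear members lay slightly below control without passing. In these bulk libraries, fewer cells of a type and less RNA per cell cannot be told apart. Of 9 stromal markers, 8 rose in young and 9 in senescent co-culture, where they took 0.0110 to 0.0167% and 0.0288 to 0.0403% of counts against 0.00200 to 0.00230% in control. TERT was the only one of the 9 with a lower mean in senescent than in young co-culture. It had 7.97, 6.40 and 5.94 CPM in young and 4.50, 3.86 and 3.00 CPM in senescent co-culture, without overlap. Of the 9 endothelial markers tested, 7 and 6 rose as well, with shares of 0.298 to 0.357% and 0.346 to 0.374% against 0.148 to 0.204%. Over all 17729 genes tested, 1190 and 1032 were called higher. NOS3 was the only one of the 9 with a mean below control in young co-culture, at 301 against 433 CPM. In senescent co-culture its mean was 496 CPM. The part of either cell type in the changes below was not tested.

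In young co-culture the 1 member that passed was lower (2.97% of all genes were called lower), and 10 had an unadjusted p under 0.05 (23.9% of all genes). In senescent co-culture 1 was lower (2.23%) and 1 higher (5.82%), again with 10 at an unadjusted p under 0.05 (20.9%). Both comparisons used the same control libraries. The share of members called was below that of all genes in each.

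SDHA (ENSG00000073578; chr5:218241-256700, + strand, GENCODE 29 on GRCh38) had 50.0, 32.8 and 42.5 CPM in control replicates 2, 3 and 4. In young co-culture it had 25.2, 20.9 and 24.7 CPM, and in senescent co-culture 24.6, 23.8 and 25.1 CPM. Every co-culture library lay below every control library. The log2 fold change was -0.82 ± 0.16 (SE) in young co-culture (adjusted p = 0.00968) and -0.76 ± 0.16 in senescent co-culture (adjusted p = 0.0136). Levels on matrix and in medium overlapped with control: 41.5 to 47.5 CPM in young ECM, 43.4 to 47.4 in senescent ECM, 35.7 to 65.1 in young CM and 26.5 to 41.2 in senescent CM.

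The call in senescent co-culture was less firm than that in young co-culture. It was lost without senescent co-culture replicate 2 (adjusted p = 0.0537) or replicate 3 (0.0591), and when the counts of the pseudogenes SDHAP1, SDHAP2 and SDHAP3, which resemble SDHA, were added to it (log2 fold change -0.52, adjusted p = 0.0629); the range over 14 alternatives was 0.000161 to 0.817. In young co-culture the sum with the pseudogenes gave -0.59 (adjusted p = 0.0340), within a range of 9.32e-05 to 0.590 over 14 alternatives. SDHAP1 itself had 5.84, 5.25 and 5.48 CPM in control, 8.16, 6.53 and 6.24 in young co-culture and 7.93, 6.67 and 7.54 in senescent co-culture, so its levels lay above control where those of SDHA lay below. With replicate 1 included both calls were lost, at log2 fold changes of -0.39 and -0.75 (adjusted p = 0.590 and 0.817); SDHA stood at 57.4 CPM in young co-culture replicate 1 and 35.4 CPM in control replicate 1. The TMM factor of that co-culture library was 0.459, against 1.06 to 1.07 in replicates 2 to 4, and on the library total alone SDHA had 26.3 CPM there against 22.1 to 27.0 in the other 3.

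Its partners in complex II did not pass. SDHB, which carries the iron-sulfur clusters, had 72.7, 106 and 76.9 CPM in control, 58.0, 80.3 and 68.7 in young co-culture and 75.5, 71.2 and 64.6 in senescent co-culture, with log2 fold changes of -0.29 ± 0.17 and -0.26 ± 0.17 (adjusted p = 0.335 and 0.435). SDHC, a membrane anchor, stood at -0.05 ± 0.14 and -0.14 ± 0.14, and SDHD, the other anchor, at 0.08 ± 0.19 and 0.02 ± 0.19. Libraries of all 3 overlapped with control in both co-cultures. Whether SDHA differed from its partners was not tested.

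**Figure D4:**
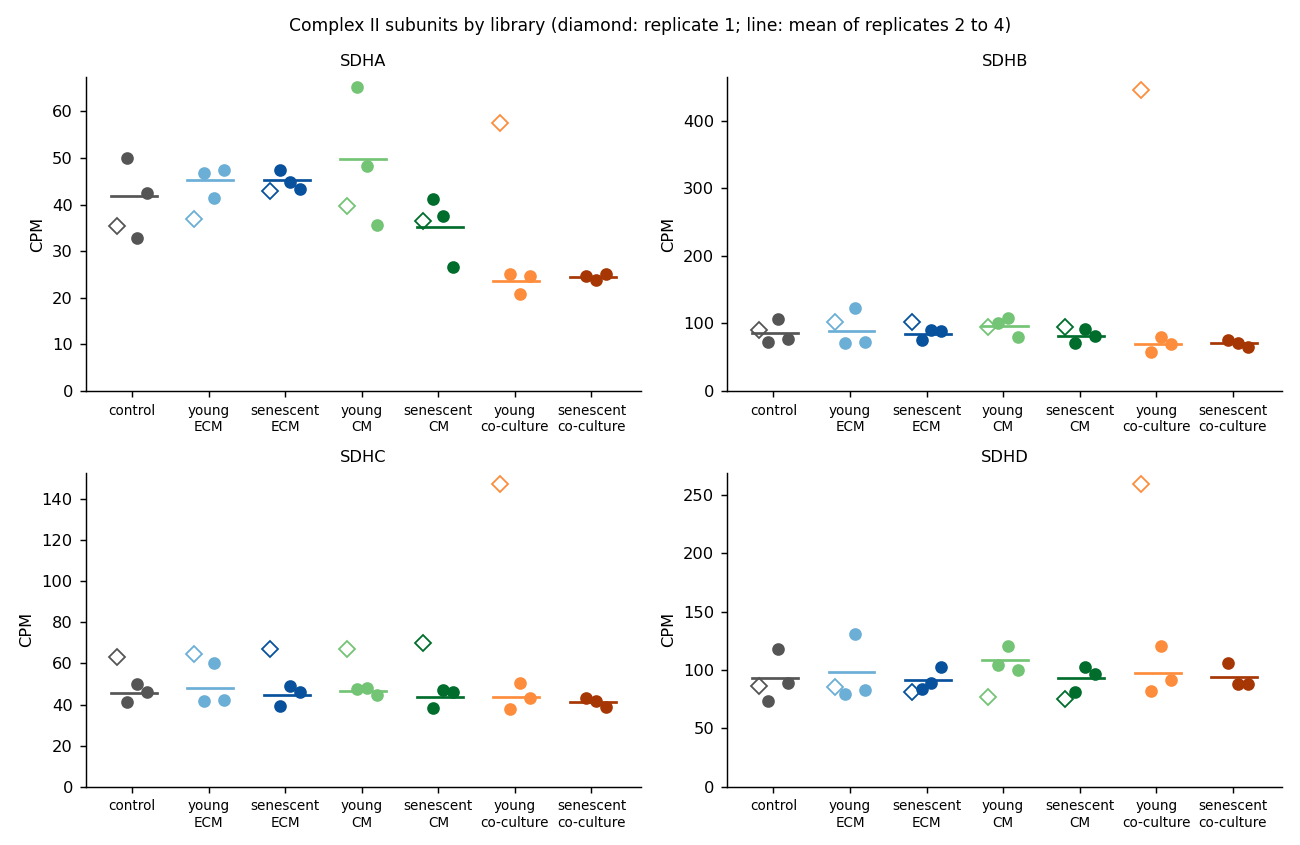
CPM (vertical, from 0) of the 4 complex II genes by library in each group; circles are replicates 2 to 4, diamonds replicate 1 and lines the mean of replicates 2 to 4. SDHA in the 6 co-culture libraries of replicates 2 to 4 lies between 20.9 and 25.2 CPM, below the 3 control libraries at 32.8 to 50.0 CPM.

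SDHA was also compared between modes of exposure, in 1 fit over the 21 libraries. It was lower in young co-culture than in young ECM by -0.97 ± 0.20 (log2, SE; adjusted p = 0.00186) and than in young CM by -1.12 ± 0.20 (adjusted p = 0.00151). Against senescent ECM, senescent co-culture stood at -0.91 ± 0.20 (adjusted p = 0.00370), while against senescent CM it stood at -0.56 ± 0.20 and did not pass (adjusted p = 0.223). The call against young CM held in 8 of 10 alternatives and was lost, among others, without the libraries numbered 2 (adjusted p = 0.0761; range over 10 alternatives 4.55e-07 to 0.304). Those against young ECM and senescent ECM each held in 9 of 10, with ranges of 1.01e-05 to 0.301 and 5.45e-05 to 0.129.

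Across all members, the same comparisons called 3 of 94 lower against young ECM (7.83% of all genes lower), 10 of 94 lower against young CM (5.43%), and 3 lower (5.55%) and 1 higher (7.11%) against senescent ECM. Against senescent CM the one member called was higher (1.76%). The 10 against young CM, in addition to SDHA, were the complex I genes NDUFS6, NDUFB9, NDUFA8, NDUFC2, NDUFA9 and NDUFV3, together with CYC1, the cytochrome c1 of complex III, COX5A and ATP5F1D. Over all genes this comparison called 2142, and 195 without the libraries numbered 2. Apart from SDHA, the members called here are not given under other settings. NDUFS6, a zinc-binding accessory subunit, had 142, 108 and 61.7 CPM in young CM and 46.0, 59.5 and 52.4 CPM in young co-culture, a log2 difference of -1.02 ± 0.24 (adjusted p = 0.0113). The highest of these values belong to young CM replicates 2 and 3, the libraries with the high ribosomal protein share. The nuclear median in this comparison was -0.60, against -0.01 for all genes.

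The remaining nuclear members lay slightly below control in co-culture, and apart from SDHA none of those lower passed in edgeR. Of 80 tested, 73 had a log2 fold change below 0 in young co-culture, with a median of -0.19, and 74 in senescent co-culture, with a median of -0.23; all genes had medians of 0.01 and 0.02. Leaving out single libraries moved the nuclear medians between -0.34 (without young co-culture replicate 3) and -0.07 (without control replicate 3) and between -0.32 (without senescent co-culture replicate 2) and -0.09 (without control replicate 3), and with all replicates the young co-culture median was 0.85. By complex the medians were -0.18, -0.17, -0.23, -0.21 and -0.20 for I to V in young co-culture and -0.18, -0.20, -0.27, -0.26 and -0.22 in senescent co-culture. All 3 libraries lay below all controls for 13 of the 80 in young co-culture (10.8% of all genes) and for 22 of the 80 in senescent co-culture (10.4%). CYC1 had 214, 216 and 216 CPM in control and 131, 173 and 168 CPM in young co-culture, with no overlap, and its log2 fold change of -0.44 ± 0.15 did not pass (edgeR adjusted p = 0.0836; DESeq2 called it at 0.0317, within a range of 0.0317 to 0.474 over 14 alternatives). NDUFS6 stood at -0.46 ± 0.14 in young co-culture (adjusted p = 0.0647), and it passed with DESeq2 (0.0181) and in the fit with replicate number as a block (0.0466), which called 2 members there in place of 1, within a range of 0.0181 to 0.529 over 14 alternatives. NDUFS8, an iron-sulfur core subunit, stood at -0.47 ± 0.16 in senescent co-culture (adjusted p = 0.108); DESeq2 called it at 0.0484 and the fit with no filter at 0.0411, within a range of 0.0411 to 1.00. NDUFS1, the largest core subunit of complex I, stood at 0.02 and -0.04, and ATP5F1B at -0.25 and -0.21.

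Mitochondrial protein-coding genes did not pass in either co-culture in edgeR, and none was free of overlap with control. All 13 had a log2 fold change below 0 in senescent co-culture, with a median of -0.33 (-0.11 without control replicate 2, -0.56 without senescent co-culture replicate 4), and 12 of 13 in young co-culture, with a median of -0.17 that became 0.04 without control replicate 2 and -0.34 without control replicate 3. MT-CO1, the catalytic core of complex IV, had 6168, 3748 and 5079 CPM in control, 5162, 3627 and 4517 in young co-culture and 3567, 3317 and 5131 in senescent co-culture. MT-ND6 had the largest change in size, at -0.64 ± 0.50 and -0.85 ± 0.50 (adjusted p = 0.484 and 0.375; with no filter on low counts 0.00371 and 1.22e-05, and in senescent co-culture 0.0461 without control replicate 3; ranges over 14 alternatives 0.00371 to 0.848 and 1.22e-05 to 1.00), from 69.0, 12.1 and 31.4 CPM in control to 14.0, 18.5 and 29.6 CPM in senescent co-culture. Its control libraries alone spanned the whole range of the co-cultures. The median pooled SD of log2 CPM within groups was 0.40, 0.30, 0.25 and 0.31 for the mitochondrial genes of complexes I, III, IV and V, and 0.25 for the complex II genes.

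Mitochondrial ribosomal RNA, which is no member, lay the other way. MT-RNR1, the small ribosomal RNA, rose in both co-cultures, from 666, 766 and 651 CPM in control to 1460.0, 1955 and 1933 in young co-culture (log2 fold change 1.37 ± 0.18, edgeR adjusted p = 0.000602) and 1305, 1053 and 1612 in senescent co-culture (0.94 ± 0.17, adjusted p = 0.00578). MT-RNR2, the large one, stood at 0.52 ± 0.16 and 0.25 ± 0.16 and did not pass (adjusted p = 0.0628 and 0.420). Higher levels were not particular to co-culture. In young ECM and young CM, MT-RNR1 stood at 0.76 ± 0.28 and 0.88 ± 0.28 (edgeR adjusted p = 0.364 and 0.860). MT-RNR2 stood there at 0.73 ± 0.26 and 0.61 ± 0.26 (adjusted p = 0.341 and 0.860). Both together took 0.695 ± 0.143% of counts in control (SD, n = 3), 1.09 ± 0.0991% in young co-culture, without overlap, and 0.893 ± 0.121% in senescent co-culture, with overlap. Their share was 1.12 ± 0.384% in young ECM and 1.02 ± 0.239% in young CM, both with overlap. In poly(A)-selected libraries the level of ribosomal RNA also depends on the selection and on RNA quality, and their part in the values of the 13 messages was not tested.

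COX7A1 (ENSG00000161281; chr19:36150922-36152869, - strand) was counted 0, 6 and 1 times in control replicates 2, 3 and 4, and 5, 12 and 7 times in young co-culture. In senescent co-culture it was counted 40, 14 and 13 times, or 0.500, 0.158 and 0.183 CPM, above every control library. The fitted log2 fold change was 3.53 ± 0.77 (adjusted p = 0.0148), a size that at such counts depends on the prior count. Leaving out single libraries moved this fold change between 2.78 and 5.51. The call was lost without control replicate 4 (adjusted p = 0.0740) or senescent co-culture replicate 2 (0.0848), within a range of 1.72e-07 to 1.00 over 14 alternatives. Leaving out single libraries moved the number of members called in senescent co-culture between 0 (without senescent co-culture replicate 2) and 3 (without control replicate 3), with 1 left without control replicate 4 or senescent co-culture replicate 3. Senescent minus young co-culture stood at 1.92 ± 0.64 and did not pass (adjusted p = 0.521).

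COX7A1 was highest where the summed share of stromal markers was highest, though TERT alone was lower in senescent than in young co-culture. In the 5 replicate 1 libraries with stromal markers at 0.492 to 0.934% of counts COX7A1 had 6.88 to 9.81 CPM. In the 15 libraries of replicates 2 to 4 of those groups it had 0 to 0.0618 CPM. Young co-culture replicate 1 departed from this order, with 0.714 CPM at 0.00414% stromal markers. COX7A2, its widely expressed counterpart, had 77.1, 112 and 90.6 CPM in control and 82.0, 81.9 and 64.1 CPM in senescent co-culture (log2 fold change -0.29 ± 0.20, adjusted p = 0.476). It overlapped with control. Whether the COX7A1 transcripts came from stromal cells was not tested.

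**Figure D5:**
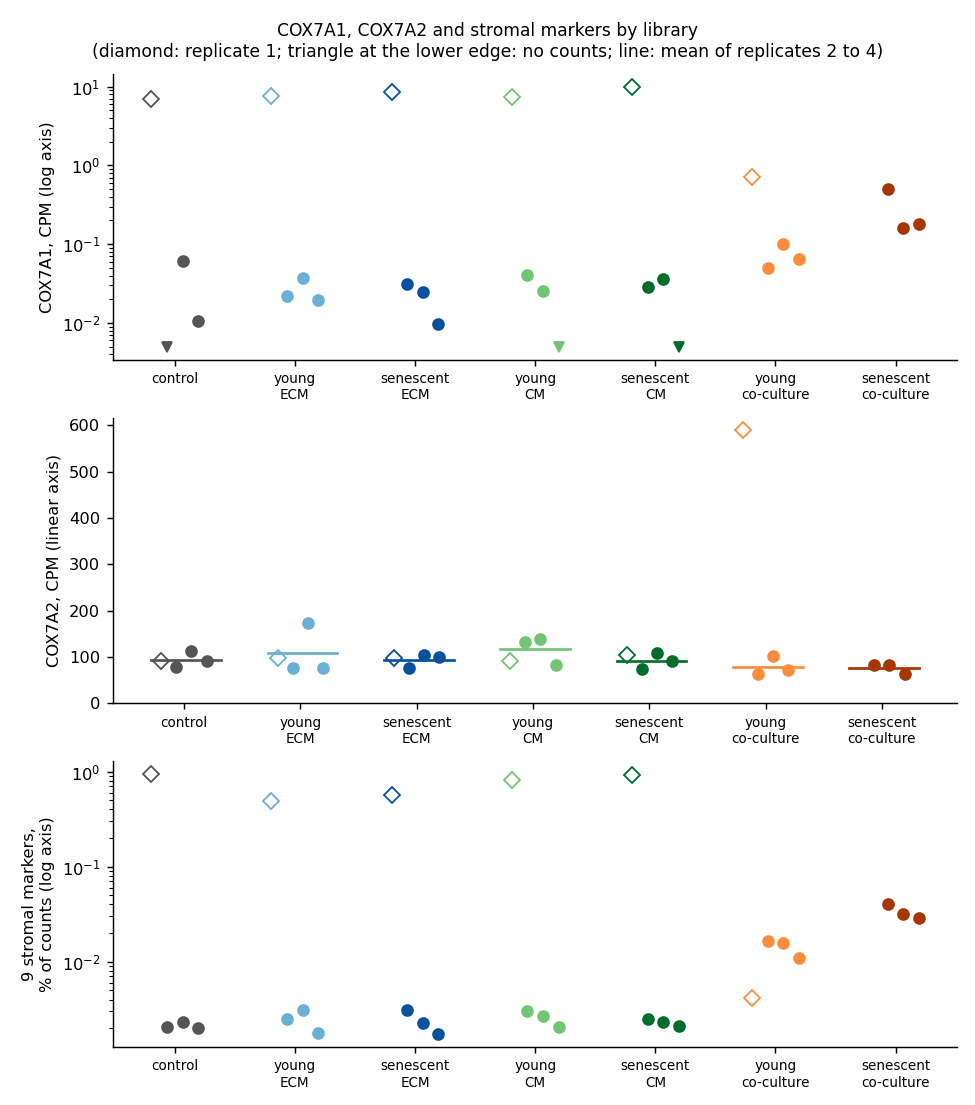
COX7A1 (CPM, log axis), COX7A2 (CPM, linear axis from 0) and the share of 9 stromal markers (percent of counts, log axis) by library in each group; circles are replicates 2 to 4, diamonds replicate 1 triangles libraries with no COX7A1 counts and lines the mean of replicates 2 to 4 (COX7A2 only). COX7A1 reaches 6.88 to 9.81 CPM in the 5 replicate 1 libraries of the control, ECM and CM groups, and lies at 0.158 to 0.500 CPM in senescent co-culture.

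Senescence of the MSCs was asked about directly within each mode. None of 93 members passed the threshold between senescent and young ECM (0.00% of all genes called), between senescent and young CM (0.0167%) or between senescent and young co-culture (0.395%). DESeq2 called 0 in each, and in edgeR 0, 1 and 1 members had an unadjusted p under 0.05 (backgrounds 0.783, 5.41 and 5.60%). Nuclear medians of the log2 difference were -0.16 for ECM, -0.37 for CM and -0.04 for co-culture, and mitochondrial medians were -0.10, 0.03 and -0.16. In medium 77 of 80 nuclear members lay below 0, with no member's libraries lower without overlap (5.01% of all genes). SDHA was the member with an unadjusted p under 0.05 in medium, at -0.52 ± 0.22 (adjusted p = 0.765), from 65.1, 48.3 and 35.7 CPM in young CM to 41.2, 37.6 and 26.5 CPM in senescent CM, with overlap.

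Other genes of the pathway were read from a list of 138: 18 transcriptional regulators, 22 genes of mitochondrial DNA and RNA upkeep, 17, 4, 6, 24 and 6 assembly factors of complexes I, II, III, IV and V, 20 electron carriers and transporters and 21 citric acid cycle genes. None passed on matrix or in medium, nor between senescent and young MSCs. In young co-culture 2 of 135 tested fell (2.97% of all genes did) and 0 rose, and in senescent co-culture 1 fell (2.23%) and 0 rose, with medians of -0.14 and -0.11. The 2 genes were FH and IDH3A. FH, fumarase, which acts on the product of complex II, had 169, 185 and 178 CPM in control, 108, 130.1 and 119 in young co-culture and 130.4, 126 and 126 in senescent co-culture. Its libraries did not overlap with control, and its log2 fold changes were -0.57 ± 0.12 (adjusted p = 0.0129) and -0.46 ± 0.12 (adjusted p = 0.0354). The senescent co-culture call of FH was lost without control replicate 3 or 4 or any 1 of the 3 co-culture libraries (adjusted p up to 0.116; range over 14 alternatives 0.00130 to 1.00). That of young co-culture was lost without its replicate 2 or 4 (0.0521 and 0.0619; range 4.83e-05 to 0.831). IDH3A, the catalytic subunit of NAD-dependent isocitrate dehydrogenase, fell by 0.61 on the log2 scale in young co-culture, from 79.0, 100.3 and 89.4 CPM to 56.9, 61.6 and 56.9 CPM (SE 0.12, adjusted p = 0.0114); without young co-culture replicate 4 it did not pass (adjusted p = 0.0612; range over 14 alternatives 3.48e-05 to 0.361).

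Replicate 1 showed another balance between the genomes. In young co-culture replicate 1, 74 of the 76 nuclear members at 1 CPM or more lay above all of replicates 2 to 4, with a median log2 ratio of 2.57 to their mean, while 10 of the 13 mitochondrial genes lay below all of them, with a median of -1.34. These values carry its TMM factor of 0.459; on the library total alone, 70 nuclear members lay above with a median of 1.36, and 12 mitochondrial genes below with a median of -2.56. Its mitochondrial and nuclear shares were 0.848 and 1.98% of counts. In the 5 other replicate 1 libraries the mitochondrial medians were 0.21 to 0.71 and no mitochondrial gene lay below all of replicates 2 to 4. Nuclear medians in those 5 were -0.35 to 0.17.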

How the data were processed

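Per the labels' protocols, poly(A) RNA went into a directional library kit. The submitters' processing notes name HISAT2 2.2.1, featureCounts 2.0.1 and GRCh38; neither the strand setting nor the annotation release is given in the sources used here. The deposited table holds raw whole-number counts for 60648 gene entries, of which 44 Y copies of pseudoautosomal genes were left out. Symbols came from a gene name table, and positions, biotypes and exon lengths from GENCODE 29.

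Genes were tested with edgeR 4.0.16 (R 4.3.3; quasi-likelihood F-test, 2-sided) after filterByExpr (minimum count 10) and TMM normalization; p-values were adjusted by Benjamini-Hochberg over all genes tested and a threshold of 0.05. Replicates 2 to 4 entered 3 fits: control with ECM and CM groups (15 libraries, 18015 genes), control with co-cultures (9 libraries, 17729 genes) and all 7 groups (21 libraries, 18492 genes). Each SE of an edgeR log2 fold change was derived as its absolute size divided by the square root of the F statistic. DESeq2 1.42.0 was an alternative. The fits were checked on simulated counts, drawn independently for each gene and library. That check does not cover pairing by replicate number or genes that move together across libraries. Every pair of libraries in a group differed by more than sampling noise. Shares are of the library total without TMM, marker shares included.

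Same-numbered libraries correlated above 0.1 in their deviations from group means for every pair of young ECM, young CM and young co-culture with control, and not for every pair of the other comparisons; the labels do not say what a number shares.

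Members and gene lists were chosen with earlier results of these data known. Named are all mitochondrial members, nuclear members past the threshold, isoform families, core subunits, the highest and lowest members, and listed pathway genes past the threshold; NDUFS6, NDUFS8, the low complex I members, the mitochondrial ribosomal RNAs and MT-ND4 as the example on matrix were picked after their values were seen, as were levels on the library total without TMM factors. Motif letters are common core forms, chosen likewise.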

Additional observations from a re-analysis of the deposited data

Results flagged for a closer look

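Some libraries stood far from the other 3 of their group, in 15 of 84 group and measure pairs examined. No chance rate is set against this count, because replicate 1 was already known to differ and many pairs share a library. All but 1 were replicate 1. Young co-culture replicate 1 was high in SDHA (57.4 CPM against 20.9 to 25.2), SDHB (445 CPM against 58.0 to 80.3), SDHC (147 CPM against 37.9 to 50.5), COX7A1 (0.714 CPM against 0.0501 to 0.102), NDUFA13 (16.2 CPM against 1.68 to 2.26), NDUFV3 (85.3 CPM against 31.6 to 34.8), COX7A2 (589.7 CPM against 62.2 to 102) and COX4I1 (1812 CPM against 198 to 306). Its TMM factor of 0.459, against 1.06 to 1.07 in the other 3, raises all of these values. On the library total alone SDHA was within the others (26.3 CPM against 22.1 to 27.0), and the other 7 genes were still above them, NDUFV3 least (39.1 CPM against 33.9 to 36.9). COX7A1 stood at 6.88 CPM in control replicate 1, 7.64 in young ECM, 8.44 in senescent ECM, 7.34 in young CM and 9.81 in senescent CM replicate 1, where the other 3 libraries of each group were at 0.0618 CPM or less. SDHC was at 66.8 CPM in young CM replicate 1 (44.7 to 47.9 in the others). The one library not of replicate 1 was young ECM replicate 3, with SDHD at 131 CPM against 79.9 to 85.9.

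The effect of exposure differed between co-culture and another mode for some members, by a test of the difference in 1 fit over 21 libraries (edgeR, log2, adjusted p). Against young ECM, young co-culture differed for SDHA (-0.97, 0.00186), NDUFA13 (-0.82, 0.0321) and MT-CYB (-0.69, 0.0445). Against young CM it differed for SDHA (-1.12, 0.00151), NDUFV3 (-0.57, 0.00853), NDUFS6 (-1.02, 0.0113), NDUFA9 (-0.75, 0.0249), ATP5F1D (-0.84, 0.0264), CYC1 (-0.62, 0.0293), NDUFA8 (-0.65, 0.0403), NDUFC2 (-0.68, 0.0409), COX5A (-0.63, 0.0416) and NDUFB9 (-0.87, 0.0424). Against senescent ECM, senescent co-culture differed for COX7A1 (3.59, 0.00297), SDHA (-0.91, 0.00370), NDUFA13 (-0.88, 0.0259) and MT-ATP6 (-0.71, 0.0463), and against senescent CM for COX7A1 (3.63, 0.0109). Apart from SDHA, these calls are not given under other settings.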

How the results depend on the processing

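The counts of members past the threshold stayed at 0 in the ECM and CM comparisons under every alternative run, and the co-culture counts moved by 1 or 2 genes. In young co-culture, where 1 member passed, no filter on low counts gave 2, DESeq2 3, the replicate block 2 and all replicates 0; leaving out single libraries gave 1 to 1. In senescent co-culture, where 2 passed, no filter gave 4, DESeq2 3, all replicates 0 and SDHA summed with its pseudogenes 1, a choice made after seeing the data; leaving out single libraries gave 0 to 3. Senescent against young co-culture gave 1 with no filter, against 0. Over the 7 groups, where 4 passed, no filter gave 43, DESeq2 11, the replicate block 15, all replicates 0, and leaving out a replicate number 1 to 2. The replicate block moved no other count of members in the comparisons with control or between senescent and young MSCs. Counts of members between modes of exposure are not given under the block. COX7A1 in senescent co-culture reversed with all replicates, at -2.70 on the log2 scale, since control replicate 1 then enters with 656 counts. Among the medians, the nuclear one turned without young ECM replicate 3 in young ECM (-0.30), with all replicates in young co-culture (0.85), without control replicate 3 (0.02) or senescent ECM replicate 2 (0.01) in senescent ECM, and without young ECM replicate 3 in senescent against young ECM (0.21); the mitochondrial one turned without control replicate 2 in young CM (0.11) and senescent CM (0.17). Other medians that turned were at most 0.17 in size. Of 240 alternative values of the mitochondrial and nuclear medians, 237 stayed within the spread (SD) between libraries. Turned medians lay within that bound too, as the nuclear one of young ECM at -0.30 did, so the count is no measure of stability. The causes of the other moves were not tested. Depth was not limiting for most members, but COX7A1 and the low complex I genes rest on few counts.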
